A study of Mus musculus with 16 samples.

Results

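The 8 genes described here are the Schwann cell and myelin genes Mbp, Pmp22, Prx, Mag, Sox10, S100b, Ncam1 and Ngfr, taken by symbol from a count table of 49568 gene symbols. All 8 were found. The RNA came from flexor tendons of young adult male mice of the inbred strains C57BL/6J (C57) and MRL/MpJ (MRL), the latter known for unusually good wound healing, and neither strain carried a transgene. Each strain gave 4 uninjured tendons and 4 tendons taken 7 days after the deep flexor tendon of a hind paw digit had been cut part of the way through, so there were 16 libraries in 4 groups. Each library was one tendon, with the sheath and the tissue around it left on, and the study's methods give 4 animals per group. The injured libraries carry the names BI-181 and BI-183 to BI-185 (C57) and BI-270, BI-272 and BI-274 with BI-275 (MRL), and the uninjured ones are numbered 1 to 4 within a strain. Values of a group are given in that order.

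Schwann cells are the glia of peripheral nerves. Some wrap single large axons in myelin, a stack of membrane held together by proteins such as Mbp and Pmp22, and others hold bundles of thin axons without making myelin. The transcription factor Sox10 is needed by the whole lineage, and after nerve injury Schwann cells are known to switch off myelin genes and to turn on adhesion molecules, the receptor Ngfr and growth factors for axons. Tendon is sparsely innervated, with most nerve fibres in the sheath and the tissue around the tendon.

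The total count per library ran from 12552424 to 23741648, with the 4 injured MRL libraries the deepest (18524170 to 23741648). Levels are given as CPM (read counts scaled to a common library size) on the TMM scale of the 16 libraries, where 3 counts, used as the limit of detection, came to between 0.126 and 0.241 CPM. Tendon genes were high throughout, their list of 9 summing to between 16860 and 74650 CPM. Libraries that stood apart were BI-181, where 12 skeletal muscle genes summed to 78250 CPM, and C57 uninjured 4, where 12 epidermal genes summed to 83070 CPM. Lesser sums stood out in BI-183 for the muscle genes (2175 CPM, the other 14 at 7.94 to 23.0 CPM) and in C57 uninjured 3 and MRL uninjured 1 for the epidermal genes (997 and 834 CPM, the other 13 at 25.6 to 135 CPM).

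The stretches upstream of Prx and Mag are shown because, of the 5 genes whose RefSeq stretches were searched, they were the ones with a match to either motif. They are the 250 bases before a RefSeq start site (GRCm38.p6), read in the direction of the gene, with motif matches in capitals. The Prx stretch is chr7:27499074-27499323 on the plus strand and the Mag stretch is chr7:30914864-30915113 on the minus strand.
Prx: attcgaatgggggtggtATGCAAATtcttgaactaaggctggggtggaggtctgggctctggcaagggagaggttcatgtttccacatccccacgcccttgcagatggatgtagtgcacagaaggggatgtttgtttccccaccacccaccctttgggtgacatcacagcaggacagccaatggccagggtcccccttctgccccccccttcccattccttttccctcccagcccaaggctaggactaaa
Mag: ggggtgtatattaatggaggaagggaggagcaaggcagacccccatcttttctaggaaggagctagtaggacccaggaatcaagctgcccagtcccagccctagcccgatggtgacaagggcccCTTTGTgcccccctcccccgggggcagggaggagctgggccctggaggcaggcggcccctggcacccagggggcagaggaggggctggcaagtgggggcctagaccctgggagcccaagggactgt
The capitals in Prx mark ATGCAAAT, the octamer bound by POU factors, the family of the Schwann cell regulator Pou3f1, beginning 233 bases before the start. The capitals in Mag mark CTTTGT, which is ACAAAG on the other strand, the core bound by SOX factors, beginning 126 bases before the start. On either strand the octamer was in 1.6% and the SOX core in 16.5% of the 32851 stretches of this length. The search covered 10 such stretches for 5 of the 8 genes and did not cover Mbp, Sox10 or Ncam1. The SOX core was in 2 of these stretches (both of Mag, overlapping) and the octamer in 1. These matches are letters in a window, chosen for display after the sequences were read.

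Per length of exon, the 8 genes covered a wide span of levels. The median over the 16 libraries was 482 CPM per kb for Pmp22, 44.0 for S100b, 6.72 for Ncam1, 2.76 for Mbp, 0.291 for Prx, 0.154 for Ngfr, 0.00689 for Sox10 and 0 for Mag. Pmp22, S100b, Ncam1 and Mbp were above the limit of detection in every library. Prx, Mag, Sox10 and Ngfr were at 0 counts in at least 1 library each. In whole tendon, fewer cells of a type and less RNA per cell cannot be told apart.

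**Figure D1:**
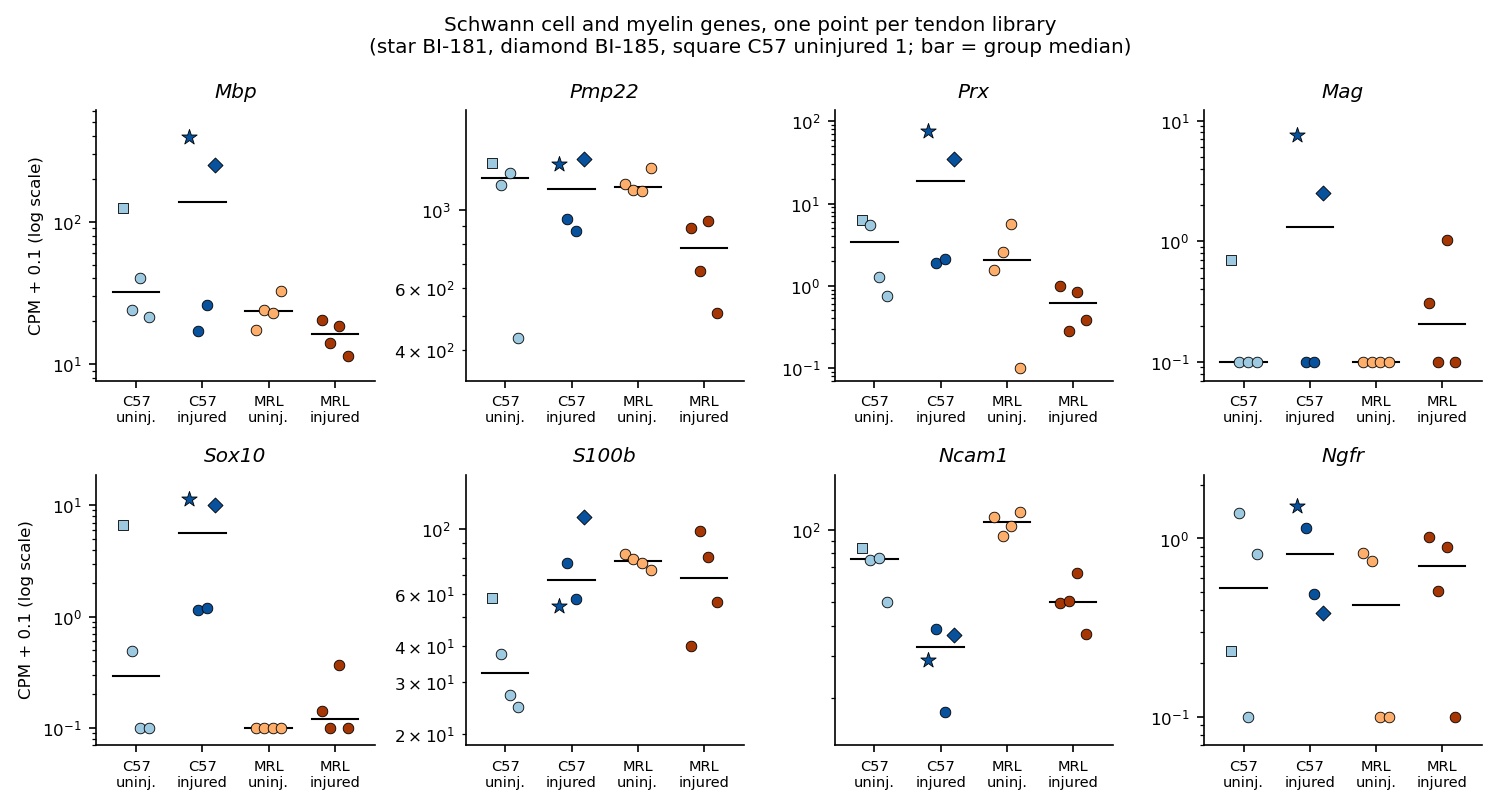
CPM plus 0.1 on a log scale (vertical axis) of each of the 8 genes in the 16 libraries, by group (horizontal axis), with bars at the group medians. BI-181, BI-185 and C57 uninjured 1 hold the highest values of Mbp, Prx and Sox10, while Ncam1 is lower in the injured group of both strains.

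Mbp, the basic protein that seals the inner faces of compact myelin, lies at chr18:82475146-82585637. The same locus also gives the golli transcripts, which cells outside nerve make. Injured C57 tendons had 392 CPM in BI-181, 16.9 in BI-183, 25.8 in BI-184 and 251 in BI-185, and uninjured C57 tendons 1 to 4 had 125, 23.9, 40.0 and 21.2 CPM. Uninjured MRL tendons 1 to 4 had 17.3, 23.9, 22.9 and 32.3 CPM, and the injured ones 20.4, 13.9, 18.4 and 11.3 CPM. So 3 C57 libraries were at 125 CPM or above and the other 13 libraries were at 40.0 CPM or below.

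Pmp22, a tetraspan protein of compact myelin that was also found as a growth arrest gene in fibroblasts, lies at chr11:63128982-63159547. Uninjured C57 tendons 1 to 4 had 1356, 1177, 1272 and 434 CPM and the injured ones, in the order above, 1341, 938, 871 and 1386 CPM. Uninjured MRL tendons 1 to 4 had 1179, 1139, 1129 and 1315 CPM and the injured ones 885, 669, 929 and 508 CPM. The C57 groups overlapped, and the MRL groups did not, with every injured tendon below every uninjured one.

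Prx (periaxin), a scaffold protein that anchors myelin-forming Schwann cells to their basal lamina, lies at chr7:27499324-27520214. Injured C57 tendons had 75.2, 1.79, 2.01 and 35.2 CPM and uninjured ones 6.25, 5.38, 1.16 and 0.658 CPM. Uninjured MRL tendons had 1.46, 2.45, 5.50 and 0 CPM and injured ones 0.883, 0.182, 0.750 and 0.279 CPM. The 2 high values were again BI-181 and BI-185, and all 4 injured MRL tendons were under all 4 injured C57 tendons. Gm15541 on the opposite strand overlaps 300 of the 5579 exonic bases of Prx, and whether the counting used strand is not given in the sources used here.

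Mag, an adhesion protein of the myelin layer next to the axon, lies at chr7:30899176-30914873 and was close to or under the limit of detection in most tendons. BI-181 had 120 counts (7.45 CPM), BI-185 had 34, C57 uninjured 1 had 9, BI-274 had 21 and BI-270 had 5. The other 11 libraries had 0 counts, which included all 4 uninjured MRL tendons. The 2 injured MRL libraries with Mag counts had 1 Sox10 count (BI-270) and 6 (BI-274).

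Sox10, the lineage factor, lies at chr15:79154908-79165240. Injured C57 tendons had 11.4, 1.05, 1.10 and 9.88 CPM, from 183, 17, 17 and 139 counts. Uninjured C57 tendons 1 and 2 had 6.52 and 0.389 CPM, and numbers 3 and 4 had 0 counts. In MRL, Sox10 had 0 counts in all 4 uninjured tendons and in BI-272 and BI-275, 1 count in BI-270 and 6 in BI-274. Sox10 was thus over the limit of detection in 6 of 8 C57 libraries and in 1 of 8 MRL libraries. Melanocytes also use Sox10. Their enzyme genes Tyrp1 and Dct had 160 and 122 counts in C57 uninjured 4 and 0 in the other 15 libraries, and C57 uninjured 4 had 0 Sox10 counts. The 8 melanocyte genes together summed to 26.3 to 44.4 CPM in uninjured and 31.7 to 42.8 CPM in injured C57 tendon, and to 27.7 to 39.8 and 17.1 to 26.5 CPM in MRL. Mitf alone had 27.2 to 40.6 CPM in injured C57 and 17.1 to 25.9 CPM in injured MRL tendon. Mlana had 33, 27, 2 and 25 counts in injured C57 and 0, 11, 0 and 0 in injured MRL tendon. Kit had 30, 60, 0 and 40 against 5, 0, 41 and 0, and Pmel 10, 6, 32 and 28 against 54, 3, 18 and 0. The part of melanocytes in the Sox10 values was not tested.

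S100b, a calcium-binding protein used as a Schwann cell marker and also made by chondrocytes and fat cells, lies at chr10:76253853-76261159. Uninjured C57 tendons 1 to 4 had 58.0, 37.5, 27.0 and 24.6 CPM and the injured ones 54.6, 76.3, 57.7 and 110 CPM. Uninjured MRL tendons had 82.5, 79.3, 76.5 and 72.6 CPM and the injured ones 40.0, 98.5, 80.1 and 56.2 CPM. All uninjured MRL tendons were above all uninjured C57 tendons, and the other pairs of groups overlapped.

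Ncam1, a cell adhesion molecule of non-myelinating Schwann cells, neurons and muscle, lies at chr9:49502136-49798925. Uninjured C57 tendons 1 to 4 had 83.4, 74.4, 75.9 and 49.8 CPM and the injured ones 28.7, 38.5, 17.5 and 36.4 CPM. Uninjured MRL tendons had 112, 94.2, 103 and 118 CPM and the injured ones 49.3, 50.3, 66.2 and 36.8 CPM. In each strain every injured tendon was below every uninjured one, and uninjured MRL tendons were all above uninjured C57 tendons. Gm11149 on the opposite strand overlaps 417 of its 8664 exonic bases.

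Ngfr, the low-affinity neurotrophin receptor of immature and repair Schwann cells, lies at chr11:95568818-95587735 and was low in every group. The highest library had 23 counts (BI-181, 1.43 CPM) and 4 libraries had 0. The 4 group totals were 33 counts in uninjured and 50 in injured C57 tendon, and 20 and 49 in uninjured and injured MRL tendon. All groups overlapped.

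The same 3 libraries stood apart for some of the other myelin genes. They were the ones with over 1000 Mbp counts, with 6310 in BI-181, 3531 in BI-185 and 1853 in C57 uninjured 1, and no other library had more than 517. Pmp2, Ugt8a, Gjb1 and Cldn19, looked at after their values were seen, encode a myelin lipid carrier, an enzyme of myelin galactolipid synthesis, connexin 32 and a claudin of Schwann cells. They had 8 to 134 counts in these 3 libraries and 0 counts in the other 13. Over both myelin lists, 8 of 13 genes had a higher CPM in each of these 3 libraries than in any of the other 13, against 0.569% of the 29726 genes with a count, a description with no test. Over all 7 Schwann cell lists it was 10 of 55. Others of the lists did not follow: Gal3st1 had 0 to 46 counts in the 3 libraries and up to 419 elsewhere, Nfasc 48 to 185 and up to 315, and Gldn 86 to 205 and up to 540. Skeletal muscle genes summed to 78250 CPM in BI-181, 12.0 CPM in BI-185 and 8.61 CPM in C57 uninjured 1. Cldn5 of endothelium and Krt19 of simple epithelium, singled out with their values in view, were high in the same 3 libraries. Cldn5 had 41.4, 27.4 and 16.9 CPM (at most 15.3 in the other 13) and Krt19 6.76, 6.18 and 3.90 CPM (at most 2.41). Some others of their lists did not follow. Emcn had 20.7, 19.9 and 8.47 CPM and up to 30.8 CPM elsewhere, and Krt7 and Krt8 had 0 counts in these 3 libraries. C57 uninjured 1 was also above the rest of its group for the endothelial list (107.5 CPM against at most 37.5) and the adipocyte list (145.6 CPM against at most 35.2). The part of these cells in the myelin values was not tested.

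Within these 3 libraries some genes kept a nearer ratio to Mbp than others. Mal, a membrane protein of myelin and lymphocytes chosen after its values were seen, had 12.3 counts per 100 Mbp counts in BI-181 (95% exact interval 11.4 to 13.3), 9.40 in BI-185 (8.38 to 10.5) and 12.9 in C57 uninjured 1 (11.2 to 14.8). Drp2, a partner of periaxin chosen in the same way, had 7.61 (6.92 to 8.35), 6.32 (5.49 to 7.23) and 7.66 (6.41 to 9.09). Cadm4, an adhesion molecule of Schwann cells also chosen after its values were seen, had 2.12 (1.78 to 2.52), 2.78 (2.25 to 3.39) and 2.43 (1.77 to 3.26). Drp2 was not confined to these libraries, with 162 counts in MRL uninjured 1 (10.7 CPM, above the 9.55 CPM of C57 uninjured 1), where Mbp had 260. Prx had 19.2 (18.0 to 20.4), 14.0 (12.7 to 15.4) and 5.02 (4.03 to 6.18). Thus the ratio of Prx to Mbp was lower in the uninjured tendon than in both injured ones. Sox10 ran otherwise, with 2.90 (2.49 to 3.36), 3.94 (3.30 to 4.66) and 5.23 (4.22 to 6.42). Mag had 1.90 (1.57 to 2.28), 0.963 (0.666 to 1.35) and 0.486 (0.222 to 0.924). Ncam1 had 7.32, 14.5 and 67.0 counts per 100 Mbp counts and Pmp22 342, 552 and 1090. The highest of the 3 ratios was 9.15 times the lowest for Ncam1, 3.91 times for Mag, 3.82 times for Prx, 3.19 times for Pmp22, 1.80 times for Sox10, 1.37 times for Mal, 1.31 times for Cadm4 and 1.21 times for Drp2. Mbp was also counted in the other 13 libraries, at 11.3 to 40.0 CPM, and how much of its counts came from myelin was not tested. The intervals cover counting error only, and with 1 uninjured and 2 injured libraries these ratios were not tested.

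**Figure D2:**
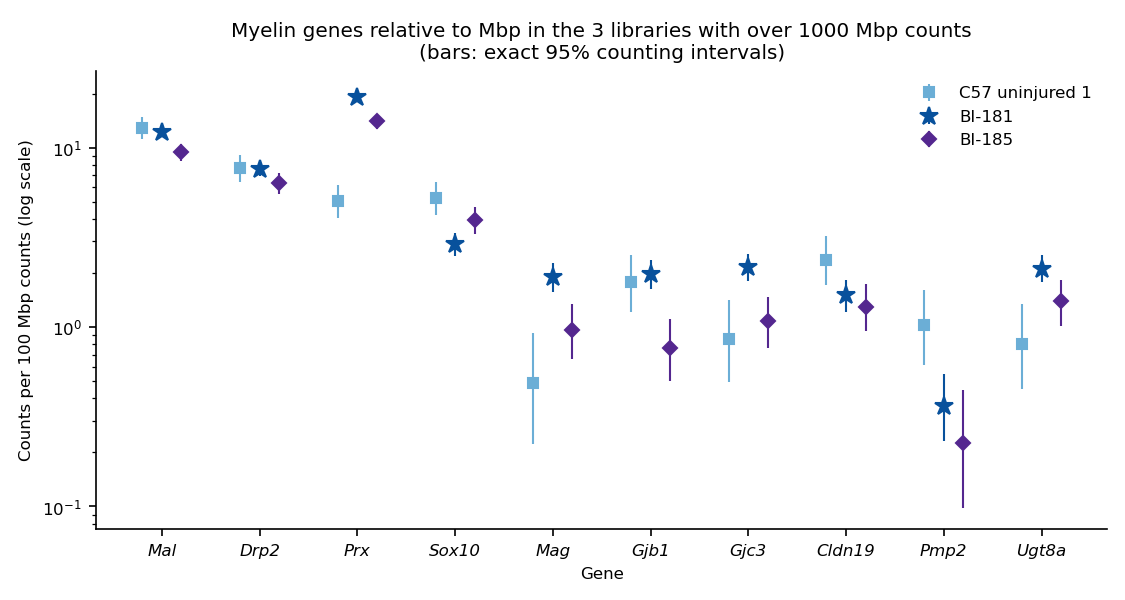
Counts per 100 Mbp counts on a log scale (vertical axis) of 10 genes (horizontal axis) in C57 uninjured 1, BI-181 and BI-185, with exact 95% counting intervals as bars. Mal and Drp2 sit close together in the 3 libraries, while Prx is at 19.2 and 14.0 in the injured tendons and 5.02 in the uninjured one.

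The first comparison asked what injury changed in C57 tendon. None of the 6 genes tested passed both thresholds of the edgeR quasi-likelihood test (adjusted p under 0.05 over all genes tested and an absolute log2 fold change over 1). Of all 14424 genes tested, 1.07% did. Ncam1 came nearest, with a log2 fold change of -1.27 (SE 0.28, adjusted p = 0.0671). The groups did not overlap for Ncam1 alone among the 6, against 11.7% of all genes tested. At an unadjusted p under 0.05, 3 of the 6 (Prx, S100b and Ncam1) and 2204 of all 14424 passed. DESeq2 called 1 of the 8, Ncam1, at -1.22 with an adjusted p of 0.00568, and 910 of all genes. The Ncam1 difference passed without C57 uninjured 4, the library with epidermal genes (-1.41, adjusted p = 0.0163). The spread was wide for the genes highest in BI-181: Prx differed by 3.06 (95% interval 0.158 to 5.97, adjusted p = 0.304), Mbp by 1.68 (-0.708 to 4.07, 0.484) and Sox10 by 1.72 (-1.96 to 5.41, 0.665). Without BI-181 these were 1.94, 0.897 and 1.21, and without C57 uninjured 1 they were 3.54, 2.57 and 5.34, with none called. S100b differed by 0.97 (0.229 to 1.72, 0.215) and Pmp22 by 0.06 (-0.759 to 0.874, 0.96), on the log2 scale. Mag and Ngfr did not pass the filter on low counts.

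The second comparison asked the same in MRL tendon. Ncam1 fell by 1.07 on the log2 scale (SE 0.185, adjusted p = 0.0063) and was the only one of the 6 genes tested that passed, against 7.41% of the 14274 genes tested. It stayed short of the fold threshold without BI-275 (log2 fold change -0.948, adjusted p = 0.00763) and passed in the other 7 fits that left out 1 library. Pmp22 differed by -0.67 (-1.11 to -0.224, adjusted p = 0.0571), and Pmp22 and Ncam1 were the 2 genes whose groups did not overlap, as in 22.9% of all genes tested. Mbp differed by -0.58 (-1.18 to 0.0167, 0.186), Prx by -2.14 (-4.75 to 0.466, 0.264), S100b by -0.17 (-0.712 to 0.363, 0.682) and Ngfr by 0.63 (-2.5 to 3.75, 0.811). Mag and Sox10 were not tested. Macrophage genes moved in the same tendons: the 8 of that list summed to 794 to 1319 CPM in uninjured and 3324 to 5890 CPM in injured MRL tendon, and to 622 to 1259 and 3885 to 7086 CPM in C57. Of these 8, 6 were called higher in MRL injury (Lyz2, Cd68, Fcgr1 and Itgam with the smallest adjusted p) and 4 in C57 injury (Cd68, Lyz2, Mrc1 and Adgre1). Of the adipocyte list Lpl alone was called, higher in both (1 of 6 tested in C57 and 1 of 3 in MRL). In MRL injury 1 of 4 tested muscle genes was called higher, Tnni2, while the other 3 had negative values and passed no test. Also called higher were 1 of 4 cartilage genes, Acan, and 1 of 9 tendon genes, Thbs4. The part of these in the Ncam1 values was not tested.

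Whether the injury response differed between strains was tested as an interaction. None of the 7 genes tested passed at an adjusted p under 0.05, and 0% of the 15947 genes tested did. At an unadjusted p under 0.05 there were 2 of the 7 and 1939 of all, and DESeq2 called 0 of the 8 and 221 of all. Prx had a difference of log2 fold changes, MRL minus C57, of -5.23 (-8.98 to -1.48, adjusted p = 0.344), S100b one of -1.20 (-2.12 to -0.277, 0.344), Mbp one of -2.30 (-4.76 to 0.169, 0.445) and Pmp22 one of -0.77 (-1.66 to 0.125, 0.483). For Ncam1 it was 0.15 (-0.571 to 0.868, 0.91). Sox10 at 1.75 (-2.62 to 6.13) rested on a fit to 0 counts in uninjured MRL tendon and depends on the prior count, and Ngfr was at 0.08 (-4.03 to 4.2).

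Between strains without injury, none of the 5 genes tested passed, and 0% of the 14055 genes tested did. An unadjusted p under 0.05 was found for 2 of the 5 and for 1106 of all, and DESeq2 called 1 of the 8, S100b, and 102 of all. S100b differed by 1.07 on the log2 scale, MRL minus C57 (0.48 to 1.65, adjusted p = 0.621, and 0.0437 by DESeq2), and Ncam1 by 0.58 (0.181 to 0.977, 0.621). All MRL values were above all C57 values for these 2 genes, against 5.04% of all genes tested. In the same tendons 7 cartilage genes summed to 58.2 to 101 CPM in C57 and 105 to 310 CPM in MRL, with 0 of the 4 tested called by edgeR and 3 at an unadjusted p under 0.05, with Col2a1 between 18.0 and 39.9 CPM in C57 and between 13.5 and 142 CPM in MRL, and Matn1 at 0 in 7 of the 8. Their part in the S100b values was not tested. Mbp differed by -1.13 (-2.35 to 0.0802, 0.638), and by -0.242 without C57 uninjured 1.

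Between injured tendons of the strains, Sox10 and Prx were lower in MRL. The Sox10 difference was -6.12 (SE 1.35, adjusted p = 0.0349), from 7 counts in all over the 4 MRL tendons and 356 over the 4 C57 tendons, and that of Prx was -5.77 (SE 1.32, adjusted p = 0.0458), from 47 and 1767 counts. They were 2 of 7 genes tested, against 3.43% of the 14626 genes tested. At an unadjusted p under 0.05 there were 5 of the 7 and 3103 of all. Both passed the filter on low counts only through the C57 tendons, so a gene as low in MRL could be tested only with enough counts in C57. For both genes the groups did not overlap, as in 16% of all genes tested. The calls did not hold in every fit. Without BI-181 the adjusted p was 0.0822 for Sox10 (-5.57) and 0.071 for Prx (-4.63), and 3 of 8 fits that left out 1 library called Sox10 and 2 of 8 called Prx. With all 16 libraries in one fit neither passed (0.116 and 0.0516). Mbp differed by -3.46 (-5.7 to -1.21, adjusted p = 0.0949), and DESeq2 called it (0.00611). Pmp22 differed by -0.63 (0.206), Ncam1 by 0.72 (0.178), S100b by -0.14 (0.836) and Ngfr by -0.58 (0.795). Mag was not tested.

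Some markers of other cells were called between the same injured tendons, where 3.43% of all genes tested were. The 8 endothelial genes summed to 111 to 226 CPM in C57 and 1.51 to 29.7 CPM in MRL, where Cdh5, Kdr, Tek, Emcn and Cldn5 were at 0 in BI-270, and 3 of the 8 (Pecam1, Cldn5 and Egfl7) were called lower in MRL. The 7 cartilage genes ran the other way, summing to 18.1 to 49.2 CPM in C57 and 108 to 1006 CPM in MRL, and 2 of the 4 tested were called higher in MRL (Acan by 3.78, adjusted p = 0.0272, and Hapln1 by 3.57, 0.00666). Of the 9 tendon genes 1, Scx, was called higher (1.18, 0.0162), and of the 8 macrophage genes 1, Csf1r, lower (-1.39, 0.0273). Skeletal muscle genes were at 78250 CPM in BI-181 and 2175 CPM in BI-183, and between 7.94 and 14.1 CPM in the other 6. Of 10 axonal genes, 4 were tested and Uchl1, an axonal ubiquitin hydrolase also made elsewhere, was called lower in MRL (-3.10, adjusted p = 0.0148), the list summing to 26.9 to 49.2 CPM in C57 and 6.43 to 13.4 CPM in MRL. Of 6 perineurial genes, 5 were tested and Itgb4, the laminin receptor subunit of perineurium and epidermis, was called lower in MRL (-4.91, 0.015), the list summing to 88.8 to 212 and 79.0 to 222 CPM. Itgb4, Pecam1 and Cldn5 passed the filter only through the C57 tendons. The part of these in the Sox10 and Prx values was not tested.

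**Figure D3:**
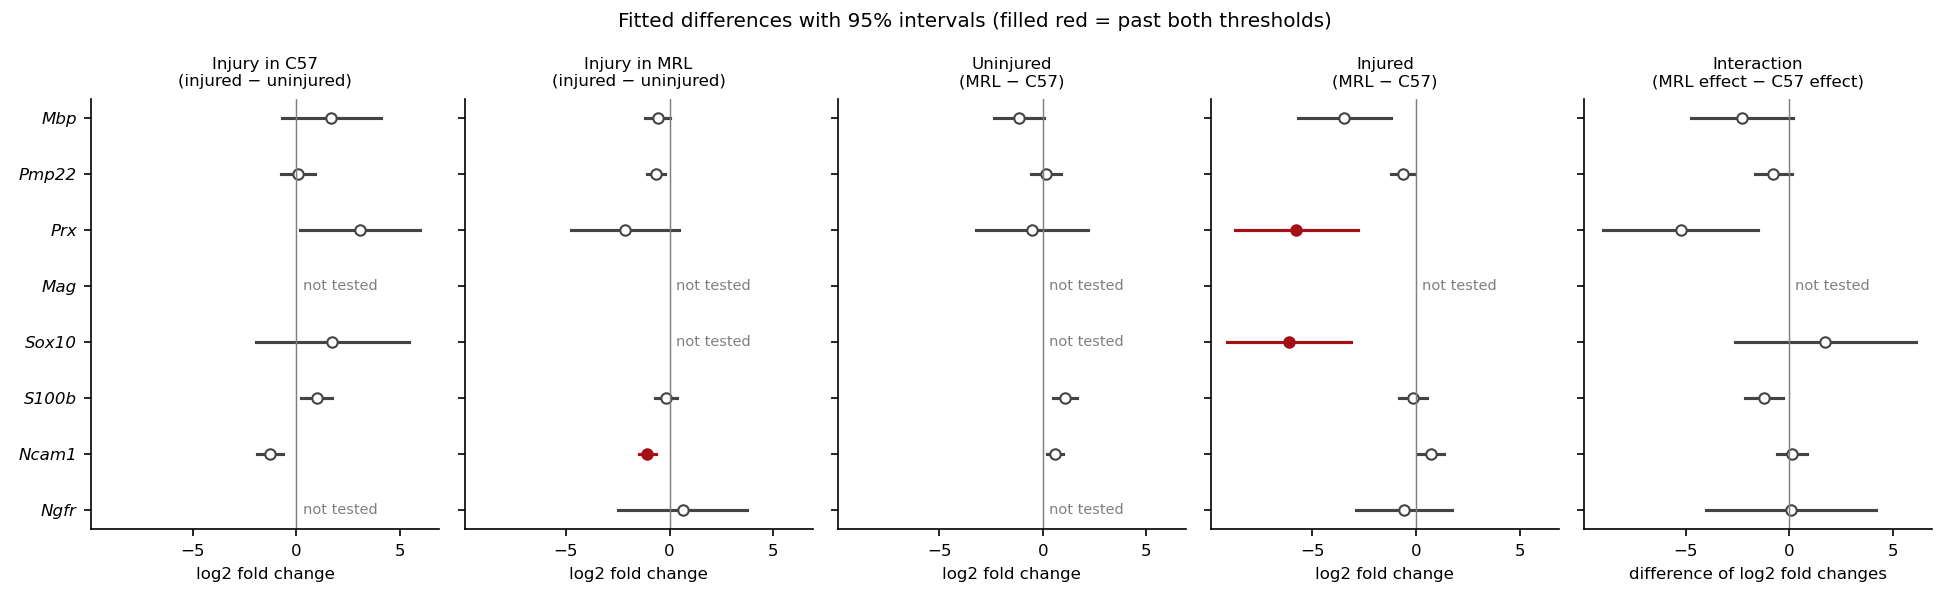
Fitted log2 fold changes of the 8 genes (rows) in 4 comparisons and the difference of log2 fold changes in the interaction, with 95% intervals, filled red where both thresholds were passed. Only Ncam1 in MRL injury and Prx and Sox10 between injured strains are filled, and the intervals of Ncam1, Pmp22 and S100b are much narrower than those of Prx and Sox10.

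Lists of 56 further Schwann cell genes gave the setting. In C57 injury 0 of the 41 tested were called by edgeR and 8 had an unadjusted p under 0.05 (2204 of all 14424 genes). Their median log2 fold change was 0.05 against -0.05 over all genes. DESeq2 called 5 of 48, all higher (910 of all). In MRL injury 0 of 31 were called higher and 1 lower by edgeR, against 750 higher and 307 lower of all 14274. Of the 31, 5 had an unadjusted p under 0.05 (4046 of all), and the median was -0.21 against -0.03. DESeq2 called 1 higher and 2 lower of 46, against 1124 higher and 683 lower of all genes. The interaction called 0 of 44, with 5 at an unadjusted p under 0.05 against 1939 of all 15947. DESeq2 called 0 of 52 there, against 102 higher and 119 lower of all genes. The uninjured strain comparison called 0 of 32, with 6 at an unadjusted p under 0.05 against 1106 of all 14055. DESeq2 called 1 of 43 there, against 64 higher and 38 lower of all genes. Between injured strains 2 of 40 were called higher and 2 lower in MRL, against 227 higher and 275 lower of all 14626. An unadjusted p under 0.05 was found for 17, against 3103 of all, and the median was -0.49 against -0.06. Fa2h, Drp2, Gjc3, Cadm4, Erbb3, Lgi4, Adam22, Gap43, Kcna1, Dhh, Gpr37l1 and Ntrk3 passed the filter's cutoff in every C57 but not every MRL tendon. The reverse held for Artn, Lif and Btc. Which genes could be tested thus bears on this median and these counts. DESeq2 called 2 higher and 7 lower of 55, against 569 higher and 908 lower of all genes. Leaving out 1 library gave 0 to 3 higher (0 without BI-184 or BI-272, 3 without BI-274) and 1 to 3 lower (1 without BI-185, BI-270 or BI-275, 3 without BI-274) in that comparison, and 0 to 1 higher and 0 to 1 lower in MRL injury.

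Of the compact myelin genes listed, Mal and Gal3st1, an enzyme of myelin sulfatide synthesis, had the highest mean CPM. Mal had 48.3, 3.52, 0 and 23.6 CPM in injured C57 tendon and 0, 1.86, 0 and 0 CPM in injured MRL tendon, a difference of -5.36 with an adjusted p of 0.188, and Gal3st1 was not tested there. Its highest value, 27.6 CPM, was in C57 uninjured 4, the library with epidermal genes, and its mean went from 2.32 to 0.639 CPM without it, below Fa2h at 2.23 CPM. Of non-compact myelin and nodes, Cnp, an enzyme of the cytoplasmic channels of myelin, and Nfasc, a nodal adhesion molecule, were the most abundant, at -0.94 (0.147) and 0.94 (0.404) between injured strains. Gjc3, a connexin of myelinating glia, was called lower in MRL (-4.71, SE 1.07, adjusted p = 0.0395), with 8.44, 0.618, 0.779 and 2.70 CPM in injured C57 tendon and 0.0421 to 0.182 CPM in injured MRL tendon. It was called in 2 of 8 fits that left out 1 library. Gjc3, like Sox10, passed the filter only through the C57 tendons.

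Among the lineage regulators Id2 and Jun were the most abundant. Jun, a factor that Schwann cells need for their repair state and that many other cells use, had 104, 131, 118 and 276 CPM in uninjured and 76.3, 62.6, 79.1 and 32.4 CPM in injured MRL tendon. It fell by 1.32 on the log2 scale (SE 0.354, adjusted p = 0.0386), and 1 of 8 fits that left out 1 library called it. In C57 it differed by -0.46 (0.562). Id2, an inhibitor of differentiation factors, differed by -0.58 (0.2) in C57 injury and by 0.08 (0.879) in MRL injury. Of the neuregulin receptor and adhesion receptor list, Erbb2 and Lgi4 led, and none of the genes tested (4 to 6 of 6, by comparison) was called by edgeR. Nrg1, a ligand that drives myelination, singled out after its values were seen, had 0, 2, 0 and 0 counts in uninjured and 169, 144, 104 and 7 in injured MRL tendon, and did not pass the filter in MRL injury. Of the immature and non-myelinating list, 1 of 9 tested was called between injured strains, Kcna1, a potassium channel of myelinated fibres, which was lower in MRL (-9.31, SE 1.33, adjusted p = 0.00552). It had 375, 20, 54 and 245 counts in injured C57 tendon and 0, 1, 0 and 0 in injured MRL tendon, so it passed the filter only through the C57 tendons, and it was called in all 8 fits that left out 1 library. The adhesion molecule L1cam, the most abundant gene of this list, differed by 1.52 in MRL injury (0.25).

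Of the repair factors, 2 of the 5 tested were called, both higher in injured MRL than in injured C57 tendon, against 3.43% of all genes tested. Bdnf, a neurotrophin, had 1.74, 2.22, 1.95 and 2.63 CPM in injured C57 and 9.55, 7.94, 7.90 and 7.41 CPM in injured MRL tendon, and was higher in MRL by 1.92 (SE 0.371, adjusted p = 0.0207). Artn, a ligand of the GDNF family, had 1.55, 1.73, 1.17 and 0.498 CPM and 7.74, 11.0, 6.40 and 6.80 CPM, and was higher in MRL by 2.66 (SE 0.503, adjusted p = 0.0185). For both the groups did not overlap, as in 16% of all genes tested, and Artn passed the filter only through the MRL tendons. The others tested were Clcf1 at 0.30 (0.712), Lif at 0.25 (0.893) and Btc at 0.05 (0.982). Leaving out 1 library kept the call in 4 of 8 fits for Bdnf and 6 of 8 for Artn, and with 16 libraries in one fit Bdnf (0.202) and Artn (0.117) did not pass. The receptors Ntrk2 and Nradd, the most abundant genes of the neurotrophin list, were not called in any comparison by edgeR, nor were Clcf1 and Btc, the repair factors of highest mean CPM. The rank of Btc rested on C57 uninjured 4, where it had 85.1 CPM, and its mean went from 7.34 to 2.15 CPM without that library, below Bdnf at 4.80 CPM. Bdnf was highest in C57 uninjured 4 too, at 20.4 CPM. Uninjured C57 tendons 1 to 4 had 3.77, 2.53, 1.005 and 20.4 CPM of Bdnf, and uninjured MRL tendons 9.56, 4.55, 8.66 and 0.644 CPM. For Artn these values were 2.49, 0.324, 1.86 and 0 CPM in C57 and 6.30, 3.54, 4.12 and 1.85 CPM in MRL. No repair factor tested was called by edgeR in either injury comparison or in the interaction. Which cells the Bdnf and Artn counts came from was not tested.

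**Figure D4:**
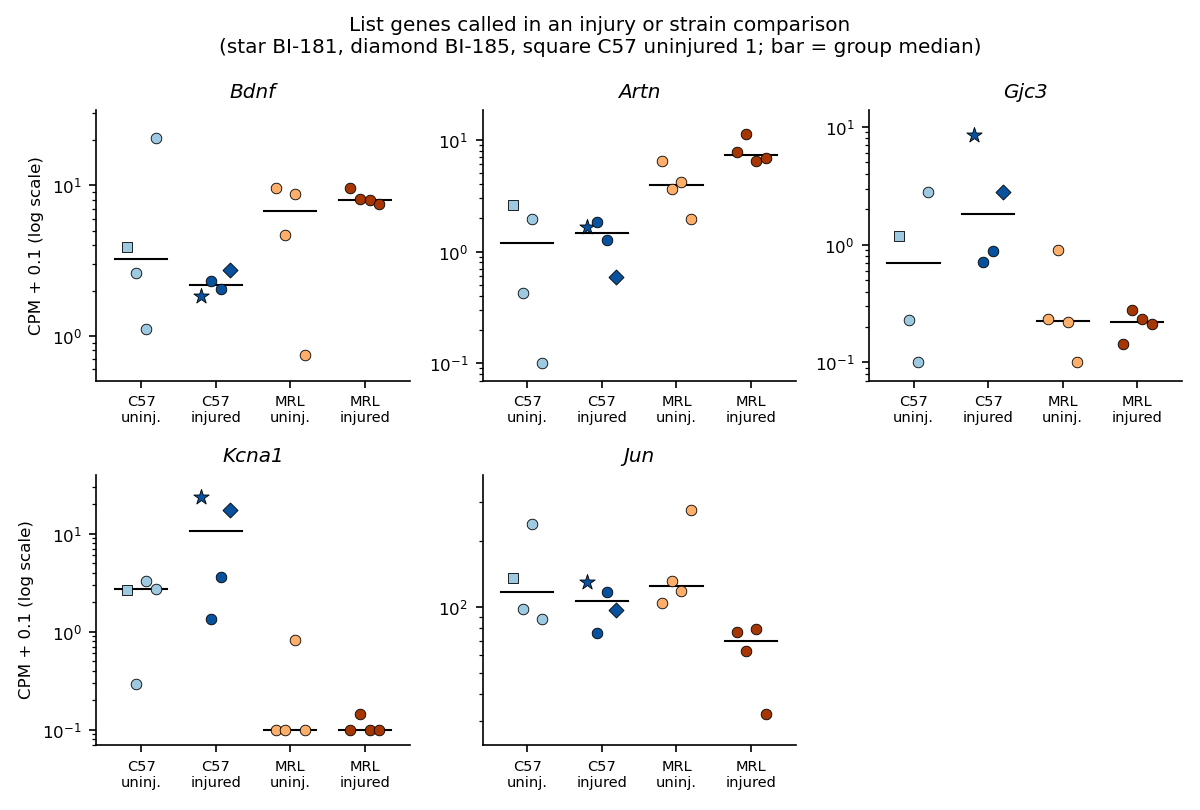
CPM plus 0.1 on a log scale (vertical axis) of 5 list genes by group (horizontal axis), 1 point per library, bars at medians. Bdnf and Artn are higher in every injured MRL tendon than in any injured C57 tendon, and Gjc3 and Kcna1 the reverse.

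**Figure D5:**
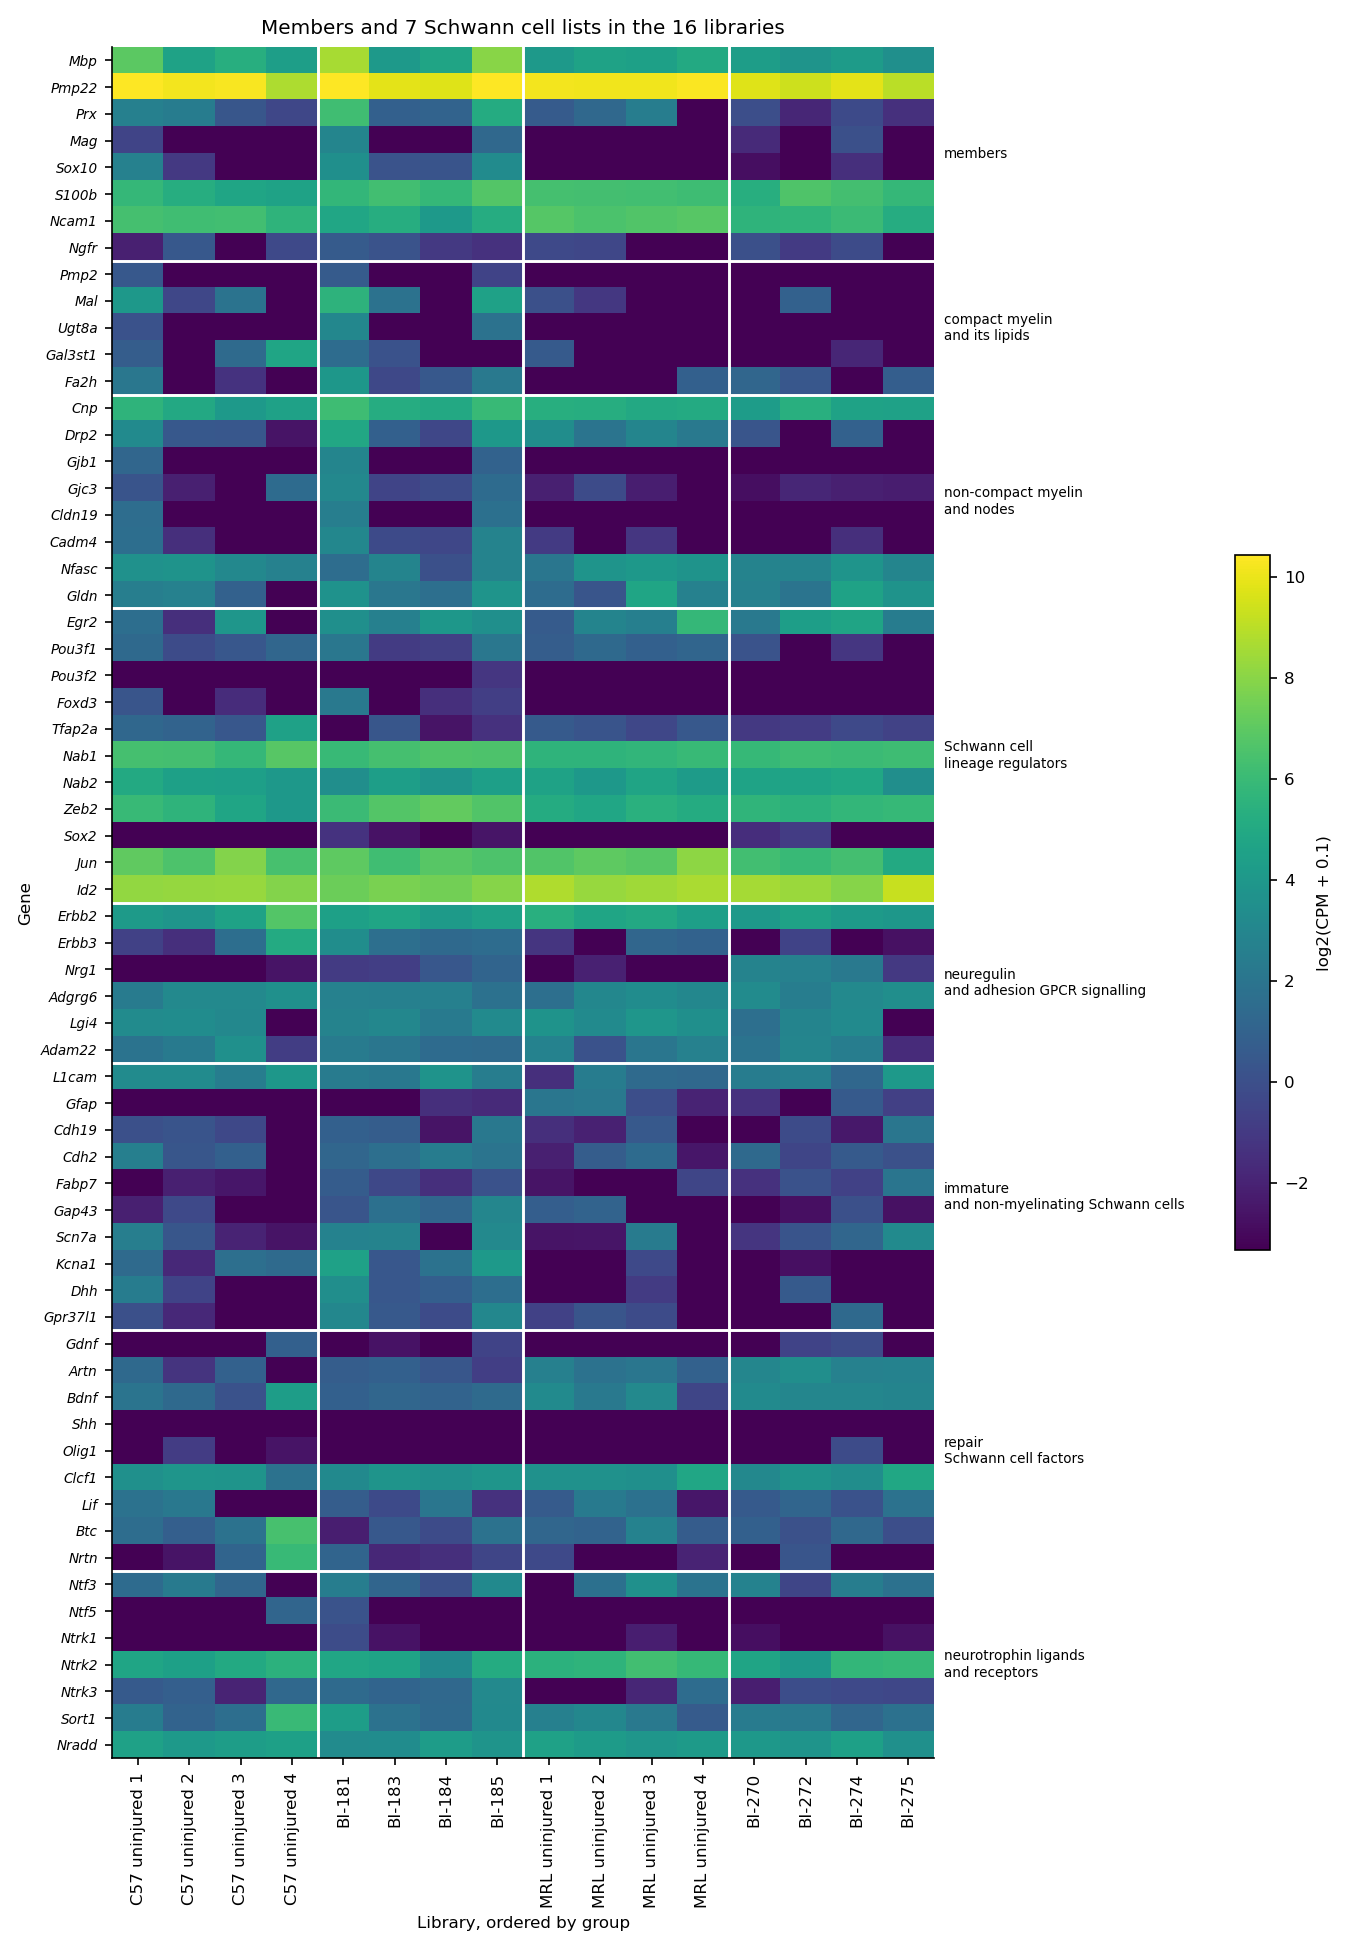
log2(CPM + 0.1) as colour for the 8 genes and 56 further Schwann cell genes (rows, in 7 lists) in the 16 libraries (columns, by group). The Mal and Ugt8a rows are brightest in C57 uninjured 1, BI-181 and BI-185, while Pmp22, S100b, Ncam1, Id2, Jun and Ntrk2 are bright in every column.

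Across the 16 libraries, which share strain, injury and depth differences, the log2 CPM of Mbp, Prx, Mag and Sox10 went together, with Pearson's r between 0.70 and 0.84 for the 6 pairs, a description that rests on the same 3 libraries. Spearman's rho for these pairs lay between 0.46 and 0.71. The highest rho of the 28 pairs was that of Mbp and Pmp22, at 0.76 (r = 0.59), and Pmp22 had a rho of 0.60 with Prx. Ncam1 and Sox10 had a rho of -0.59, and S100b had an absolute rho of at most 0.19 with each of the other 7. Among the genes kept by the filter, the 3 nearest by rho to Ncam1 were Clu (0.956), Gm15425 (0.942) and Inf2 (0.941), and those to Pmp22 were Nr2f2 (0.938), 2810410L24Rik (0.935) and Rai2 (0.924). Nearest to Sox10 were Emid1 (0.931), Rgs7bp (0.892) and Sele (0.892), to Prx Pskh1 (0.912), Aspa (0.899) and Ppp1r16b (0.867), and to Mbp Atp6v0a1 (0.868), Pnpla2 (0.865) and Trim16 (0.847). Nearest to S100b were Prr3 (0.841), Fam149a (0.829) and Lrpap1 (0.821), to Mag Batf2 (0.808), Msc (0.804) and Tal1 (0.803), and to Ngfr Ppp3cb (0.753), Gm26668 (0.747) and Zfyve19 (0.742).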

How the data were processed

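Per the labels and methods, RNA of single tendons was sequenced as single-end reads, trimmed with Trimmomatic 0.36 and aligned with STAR 2.5.2b to GRCm38.p5. The authors deposited raw counts per gene symbol, and the submitters' processing notes name featureCounts of Subread 1.5.0p3. The annotation and strand setting are not given in the sources used here. The library kit differs between the labels and the methods. PCR duplicates were not removed as far as stated, and the exact intervals of the ratios to Mbp cover counting error only and take no account of duplicates. Intervals of fold changes come from the edgeR fits and include the spread between libraries.

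All genes were fitted with edgeR 4.0.16 (quasi-likelihood, robust, TMM, filterByExpr by group, two-sided) in R 4.3.3, each pair of groups alone and the interaction over 16 libraries, with Benjamini-Hochberg adjustment over all genes tested. DESeq2 1.42.0 was an alternative, and the fits were tested on simulated data, where the interaction recovered fewer of the changed genes than the fits of 2 groups. Most genes were named by rule: the 8 members, called list genes, the 2 most abundant genes of each Schwann cell list, and the 3 genes of highest Spearman's rho. Others were named outside this rule with their values in view. Among them were Pmp2, Ugt8a, Gjb1, Cldn19, Drp2, Cadm4, Nrg1, Krt19, Tyrp1 and Dct. Some list genes are not reported here and were taken out of the lists. The members and lists were chosen with earlier results of these data known. Gene positions are GENCODE M21 (GRCm38). Uninjured replicate numbers did not pair the libraries.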

Additional observations from a re-analysis of the deposited data

Results flagged for a closer look

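In 3 of the 30 groups of 4 libraries with any spread, 1 library lay farther from the rest than Dixon's 95% limit, and chance flags about 1 in 20 groups, a rate that does not hold for groups made mostly of zeros. They were Mag in C57 uninjured 1 (0.605 CPM, where the other 3 were at 0, so that any count would have been marked), Sox10 in C57 uninjured 1 (6.52 CPM, the next at 0.389 CPM) and Sox10 in BI-274 (0.265 CPM, the next at 0.0421 CPM). Both flags in C57 uninjured 1 fell in the uninjured library with 1853 Mbp counts. The Sox10 value of BI-274 rested on 6 counts, in a library with 21 Mag counts.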

How the results depend on the processing

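Over all genes, DESeq2 called 910 in C57 injury, 1807 in MRL injury, 221 in the interaction, 102 between uninjured and 1477 between injured strains, where edgeR called 155, 1057, 0, 0 and 502. Among the 8 genes DESeq2 called 1 in C57 injury, 1 in MRL injury, 0 in the interaction, 1 between uninjured and 3 between injured strains, where edgeR called 0, 1, 0, 0 and 2. One fit of 16 libraries called 367 genes and 1 of the 8 in C57 injury, and 227 and 0 between injured strains. Without C57 uninjured 4 and BI-181 there were 867 and 1 in C57 injury. Without a filter there was 1 gene between uninjured strains, and 1 of the 8 between injured strains. Leaving out 1 library gave 10 to 750 genes (fewest without C57 uninjured 3, most without C57 uninjured 4) and 0 to 1 of the 8 in C57 injury, 689 to 1260 and 0 to 1 in MRL injury, 0 and 0 in the interaction, 0 to 3 and 0 between uninjured strains, and 231 to 481 and 0 to 3 between injured strains. The cause of these shifts was not tested.

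Signs turned only for differences that passed no test. Pmp22 in C57 injury ranged from -0.202 to 0.198 over the fits that left out 1 library, and was -0.25 without C57 uninjured 4 and BI-181. Between uninjured strains Pmp22 ranged from -0.0981 to 0.305. In the interaction Sox10 ranged from -1.88 to 2.3, Ncam1 from -0.0423 to 0.288 and Ngfr from -0.811 to 0.742, with Ngfr at -0.485 without both uninjured libraries numbered 4. S100b between injured strains ranged from -0.311 to 0.112. With total counts in place of TMM, the median of all genes between injured strains moved from -0.06 to -0.196 on the log2 scale and the share of calls that were higher in MRL from 45.2% to 32.9%.

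The uninjured groups share replicate numbers. The deviations of same-numbered libraries correlated at -0.262, 0.0155, -0.104 and -0.233, so the numbers were not taken to pair them. A fit with the number as a block called 0 genes, as without it, with S100b at 1.15 and Ncam1 at 0.595. Counts this low limit Mag, Sox10 and Ngfr: a group with 0 counts of Sox10 is under 0.241 CPM in each library, and a smaller level was not detectable at this depth.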
